A study of Rattus norvegicus with 20 samples.

Results

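Celecoxib-treated neonatal rat heart cultures were compared at 24 h and at 6 h of treatment, over all concentrations measured on a single scan day. The comparison used 12 of the 20 arrays of the series: the 9 arrays labelled 24 h, and the 3 arrays labelled 6 h that were scanned on the earlier of the 2 scan days. The cultures were primary cells from neonatal rat hearts, grown for 1 day in DMEM before treatment, and every array of the comparison carried celecoxib, an inhibitor selective for cyclooxygenase-2. The labels give the concentration only relative to a reference, as 1, 1/5 or 1/25. The 24 h group held 3 replicates of each concentration; the 6 h group held replicates 1 and 2 of concentration 1 and replicate 1 of concentration 1/25. The other 6 arrays of 6 h were scanned on the later day: replicate 3 of concentration 1, replicates 1, 2 and 3 of 1/5, and replicates 2 and 3 of 1/25. The 2 untreated arrays carry no time label. Both sets enter below only as values set beside the comparison or in alternative fits. With no untreated array labelled with a time, the length of treatment and the time in culture cannot be told apart. No label says that replicates came from separate cultures, so the p-values measure only the spread between these arrays, which may be technical.

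COX-2, encoded by Ptgs2, makes prostaglandin precursors and belongs to the genes that growth factors, cytokines and serum switch on within hours. Such early genes also encode AP-1 transcription factors and the phosphatases that limit ERK signalling, and their transcripts usually decline as a stimulus wears off. Cultures of neonatal heart hold cardiomyocytes together with fibroblasts, endothelial cells and macrophages, of which the cells other than cardiomyocytes can go on dividing in culture.

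RNA was labelled with Cy3 and hybridised to single-colour Agilent arrays. Each value below is a scaled signal, meaning the log2 of the scanner's processed intensity minus the log2 of that array's 75th percentile, and each difference is 24 h minus 6 h on that log2 scale. Values of the 3 arrays of 6 h are always given in the order concentration 1 replicate 1, concentration 1 replicate 2, concentration 1/25 replicate 1. Between 63.6% and 80.4% of probes were well above background on the 24 h arrays and between 64.3% and 68.5% on the 6 h arrays; the means of 71.9% ± 5.14 (SD, n = 9) and 66.7% ± 2.17 (SD, n = 3) differed by 5.19 percentage points (two-sided exact permutation test over 220 assignments, p = 0.114). The 2 arrays of concentration 1 for 6 h lay on the first slide, with the untreated arrays and no 24 h array. The array of 1/25 for 6 h shared the second slide with replicate 1 of concentration 1 for 24 h, and the other 8 arrays of 24 h filled the remaining slides. All 10 cardiomyocyte markers could be tested, and 9 of them were above background on all 12 arrays. So were 7 of the 9 fibroblast markers tested. Since 20905 of all 27701 genes tested were too, these counts do not set cell types apart. The sample titles read rat cardiomyocyte. The cultures are described here as mixed heart cells, a name that was not tested.

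Of 27701 genes tested, 2790 differed between the times at an adjusted p under 0.05 (10.1%, limma with Benjamini-Hochberg adjustment), 1912 higher at 24 h (6.9%) and 878 lower (3.17%). Only 11955 of the 27701 had an established symbol, and of these 972 were called higher and 257 lower. The other entries count as genes here under the names they carry. A limit was set to called genes with an established symbol, above background and unsaturated on all 12 arrays, whose times did not overlap. Within it the largest falls were those of Dlx5, Tfpi2, Fgl2, Nes and Itga2, between 5.73 and 7.48 times lower at 24 h. Outside that limit Ptgs2 was 5.78 times lower, and Cyp1a1 was at least 7.10 times lower by the floor described below. The largest rises within it were smaller, up to 4.83 times for Cimap1a. The median difference over all genes was 0.00 and 50.2% of genes were positive. In 3195 genes (11.5%) the 9 arrays of 24 h all lay on one side of the 3 of 6 h, 1817 above and 1378 below.

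Both counts rested on few 6 h arrays. Without replicate 1 of 1/25 for 6 h 1071 genes passed, and without replicate 1 of concentration 1 for 6 h 1163 passed, while without replicate 2 of that group 2658 passed. Only the second slide held both times; with slide as a fixed block, which rests on that slide's single pair of times, 8 genes passed and 2748 of the 2790 kept their direction, and with slide as a random block 2751 passed. The kept directions are partly built in, since that pair of arrays also entered the pooled comparison. A random block cannot take out a slide difference that runs with time, since each other slide held a single time. Scaling each array by its median in place of its 75th percentile lowered the median of all genes to -0.13 and gave 1172 higher and 1187 lower, so that 49.7% of the calls were higher where the main scaling gave 68.5%. The authors' deposited table, whose ratios were also scaled to the array median, gave 50.6%, and normexp background correction gave 58.5%. The share moved the other way, to 77.7% (2401 higher and 688 lower), when the 75th percentile was taken over the probes above background on all 12 arrays.

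The direction of the calls moved with brightness, as the plot of difference against signal level shows. With the genes split by mean level into 3 parts of equal size, in the dimmest part 9.64% were called higher and 1.54% lower; in the brightest part 2.79% were called higher and 4.65% lower. Of the genes called higher, 374 were well above background on no 6 h array, against 2 of the genes called lower on no 24 h array. Saturated probes stood among the falls: 117 of the 878 genes called lower (13.3%) were saturated on all 12 arrays, against 6.00% of all genes, and none of the 1912 called higher was. These 117 carry no measured fold. Among the 23895 genes saturated on no array, 1874 were called higher and 688 lower.

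**Figure D1:**
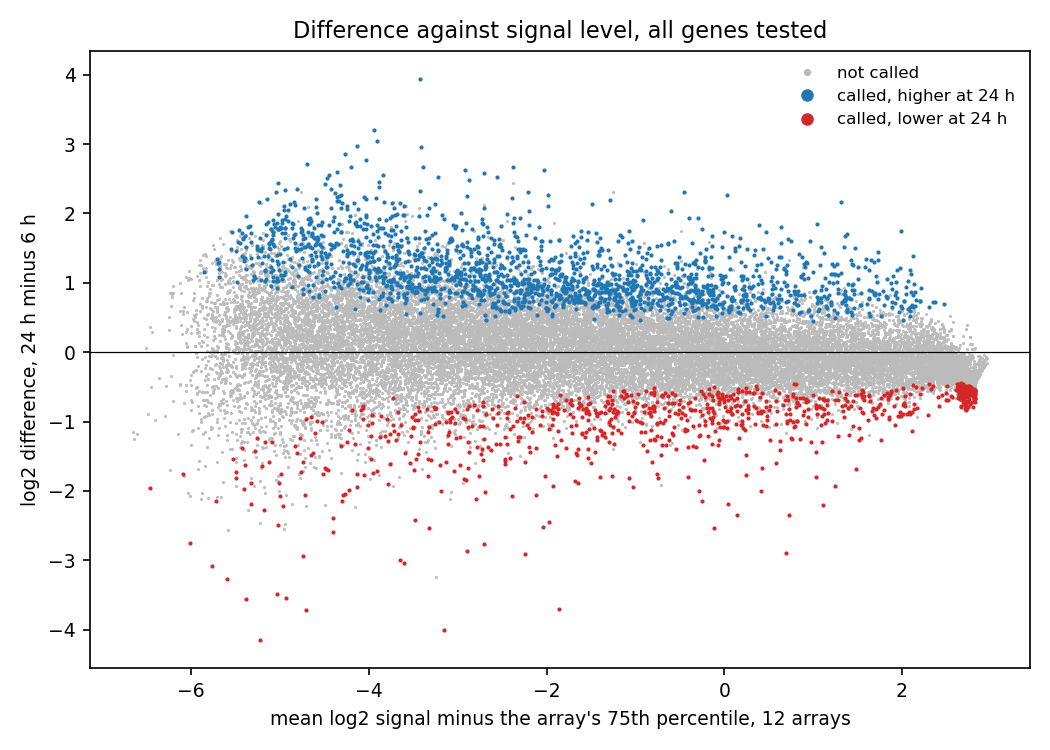
Each point is 1 of the 27701 genes, with its mean scaled log2 signal over 12 arrays on the x axis and its log2 difference, 24 h minus 6 h, on the y axis; blue points were called higher at 24 h and red points lower. Blue points crowd the dim left side, red points reach down to the fitted -4.14 of Cyp1a1, which was mostly below background at 24 h, and a dense group of red points at the bright end holds the saturated probes.

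The 6 arrays of 6 h from the later scan day, which took no part in the calls, sat differently for rises and for falls. For 80.4% of the genes called higher, their median lay nearer the 24 h mean than the 6 h mean of the earlier day; the median difference of these genes was 1.06 against the 6 h arrays of the earlier day and -0.01 against those of the later day. For genes called lower, 63.7% lay nearer the 24 h mean, with medians of -0.85 and -0.20. Among the genes not called this share was 61.6%, close to that of the genes called lower. The untreated mean lay nearer the 24 h mean for 90.8% of the genes called higher and 81.0% of those called lower, against 70.8% of the genes not called. Scan day, the mix of concentrations and any other difference between the 2 sets of 6 h arrays cannot be told apart. A stricter pattern, in which all 9 arrays of 24 h lay beyond all 9 arrays of 6 h of both days, was found upward in 181 genes (0.653% of those tested) and downward in 198 (0.715%). It held for 131 of the 1912 genes called higher and 152 of the 878 called lower, and for none of the 12 largest rises but 8 of the 12 largest falls. Of the called genes named below by rule, 5 of 44 rises and 12 of 31 falls were on the stricter side, and 39 rises and 19 falls were not. Among those that were not are Tiparp, Ptges, Hbegf, Plk1, Kif11, Mcm6, Isg15, Cd14, Cd163, Kdr, Myom2 and Ccl5. This stricter pattern was chosen after these values were seen.

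Cyp1a1, a cytochrome P450 that is the classic target of the aryl hydrocarbon receptor, fell from a measured level at 6 h to one mostly below background at 24 h. Its scaled signal was -1.76, -2.86 and -1.74 at 6 h and ranged from -7.21 to -4.07 (median -6.28) at 24 h. The times did not overlap, and Cyp1a1 was well above background on all 3 arrays of 6 h but on only 1 of the 9 of 24 h, replicate 1 of concentration 1/5. It was at least 7.10-fold lower at 24 h (adjusted p = 0.000942, limma), with the 8 arrays below background set at a floor. This floor is the lowest signal of any probe well above background on the same array. A probe not above background can exceed it, so "at least" here and below is no guaranteed minimum. The fitted difference of -4.14 ± 0.53 (SE) takes the values of those 8 arrays as read and is no measured fold. On the later scan day the 6 h arrays read from -1.96 to -0.25, above every 24 h array, and the 2 untreated arrays were far apart at -6.23 and -2.20. No 24 h array of concentration 1 or 1/25 was above background for it. Tiparp, another target of the same receptor, was -0.80 ± 0.23 lower (adjusted p = 0.0409, limma), but its call was lost in 8 of the 12 fits that left out 1 array, 2 arrays of 6 h and 6 of 24 h (adjusted p from 0.055 to 0.180), and its times overlapped in the arrays. Of the 12 xenobiotic genes tested none rose and these 2 fell, where 6.9% of all genes tested rose and 3.17% fell. The list median was 0.10, against 0.00 for all genes. Cyp1b1 read 0.25 and Ahr, the receptor itself, 0.29, neither past the threshold.

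Ptgs2 fell too. It read -1.38, -2.16 and -0.74 at 6 h and from -4.24 to -3.23 (median -4.14) at 24 h, where 7 of 9 arrays were above background. Every 24 h array lay below every 6 h array of both scan days, the later day reading from -1.40 to 0.23. The difference was -2.53 ± 0.28 (adjusted p = 0.000392, limma), 5.78-fold lower, and the untreated arrays read -3.87 and -2.39. Within concentration 1 Ptgs2 differed by -1.94 and within 1/25 by -3.39; these differed from each other by 1.45 ± 0.52, which did not pass the threshold over all genes (adjusted p = 0.529, limma). Ptgs1, the constitutive isoform of cyclooxygenase, differed by only -0.34 ± 0.14 (adjusted p = 0.146, limma). Of the other prostanoid genes, Ptgir, the prostacyclin receptor, read -3.37, -3.39 and -3.76 at 6 h and from -2.70 to -0.69 at 24 h, without overlap, and rose by 1.69 ± 0.33 (adjusted p = 0.00828, limma); the later 6 h arrays, from -4.74 to -1.31, overlapped the 24 h range. Ptges, a prostaglandin E synthase, rose by 0.69 ± 0.20 (adjusted p = 0.0457, limma), a call lost in 10 of the 12 fits that left out 1 array, 3 arrays of 6 h and 7 of 24 h (adjusted p from 0.056 to 0.150). In all, 2 of 13 prostanoid genes rose and 1 fell, where 6.9% of all genes tested rose and 3.17% fell. The list median was 0.21.

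The 12 largest called falls among genes with a symbol, above background and unsaturated on all 12 arrays are shown array by array with Cyp1a1 and Ptgs2. The rule that picked the 12 also asked for no overlap between the times on the earlier scan day. Dlx5, a homeobox transcription factor of skeletal development, read 0.01, -0.37 and 0.15 at 6 h and from -4.00 to -2.39 (median -2.80) at 24 h, a difference of -2.90 ± 0.31 (adjusted p = 0.000303, limma). Tfpi2, a secreted Kunitz-type inhibitor of plasmin and other serine proteases, read -0.85, -1.28 and -0.10 at 6 h and from -4.55 to -2.72 (median -3.50) at 24 h. Both genes stayed apart with the later 6 h arrays included, which read from -1.75 to -0.66 for Dlx5 and from -1.12 to -0.03 for Tfpi2. Tfpi2 differed by -2.87 ± 0.38 (adjusted p = 0.00116, limma). Its untreated arrays read -4.44 and -3.72, inside the 24 h range.

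**Figure D2:**
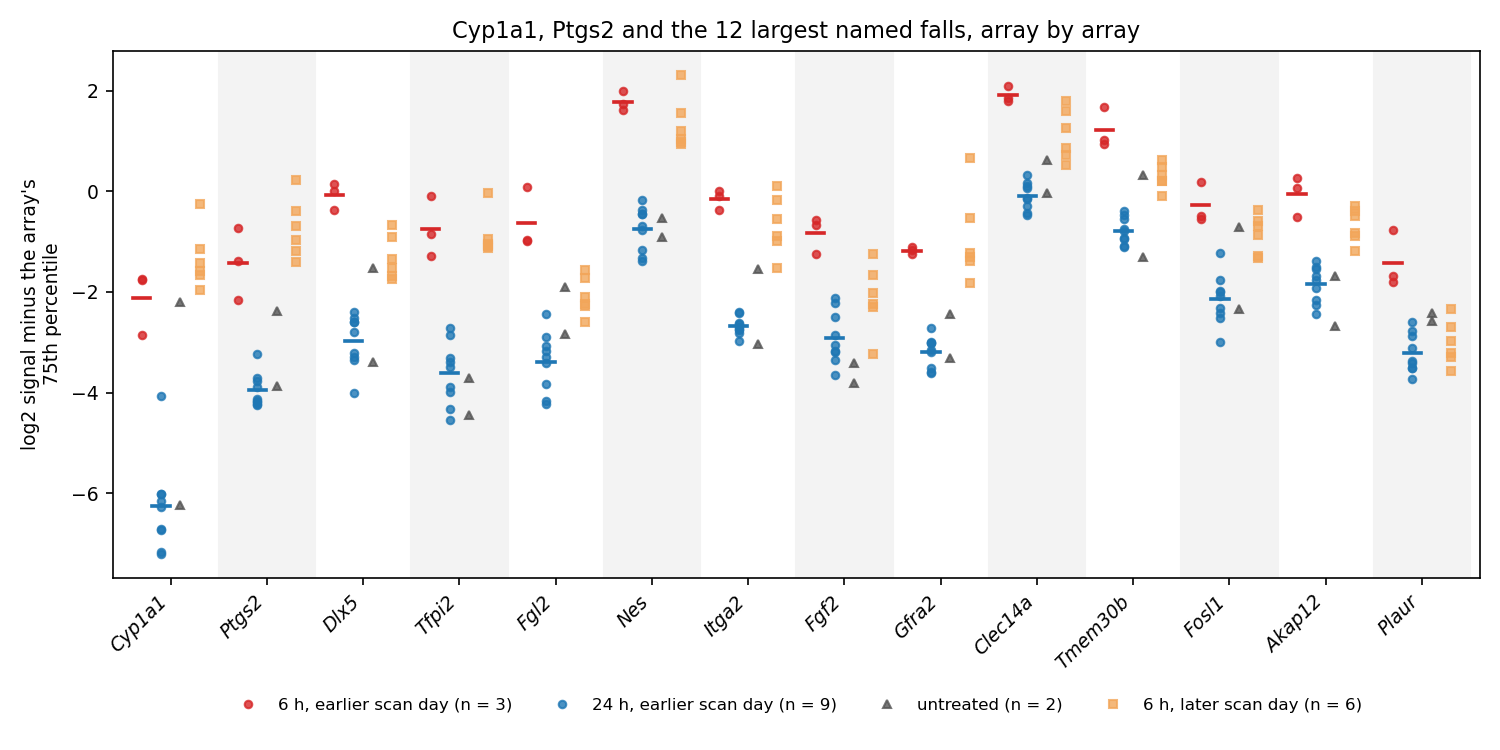
Scaled log2 signal on the y axis for Cyp1a1, Ptgs2 and the 12 largest falls on the x axis, 1 point per array: red for 6 h of the earlier scan day (n = 3), blue for 24 h (n = 9), grey triangles for untreated (n = 2), orange squares for 6 h of the later scan day (n = 6); horizontal bars are means. Blue points lie below red points in all 14 genes, which the rule of choice required of the 12 falls. They lie below the orange points too in 10 genes. For Fgl2, Fgf2, Fosl1 and Plaur the orange points reach into the blue range.

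Itga2 had the most uniform 24 h arrays of the 12. Nes, the intermediate filament nestin of dividing and progenitor cells, read 1.74, 1.63 and 1.99 at 6 h and from -1.38 to -0.17 (median -0.68) at 24 h, a difference of -2.54 ± 0.26 (adjusted p = 0.000283, limma). Itga2, the collagen-binding alpha 2 integrin subunit, read 0.00, -0.36 and -0.09 at 6 h and from -2.97 to -2.41 (median -2.70) at 24 h. The 9 arrays of 24 h had an SD of 0.18, and the difference of -2.52 ± 0.15 had the smallest adjusted p of the genes described here (1.17e-05, limma). On the later day the 6 h arrays of Nes read from 0.94 to 2.32 and those of Itga2 from -1.52 to 0.12, above all 24 h arrays. The time effect of Nes was -2.54 at concentration 1 and -2.42 at 1/25, and that of Itga2 was -2.49 and -2.63.

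Another 4 of the 12 came from receptors, scaffolds and membrane proteins. Gfra2, a receptor for the neurturin family, read -1.11, -1.25 and -1.17 at 6 h and from -3.61 to -2.71 at 24 h; it fell by 2.02 on the log2 scale (SE 0.20, adjusted p = 0.000232, limma). Clec14a, a C-type lectin of endothelium, read 1.86, 1.80 and 2.10 at 6 h and from -0.48 to 0.34 at 24 h (-2.01 ± 0.19, adjusted p = 0.000189, limma). Akap12, a scaffold that anchors protein kinase A, read -0.50, 0.26 and 0.07 at 6 h and from -2.43 to -1.38 at 24 h (-1.79 ± 0.25, adjusted p = 0.00135, limma). All 3 of these stayed apart from the 6 h arrays of the later day. So did Tmem30b, a subunit of lipid flippases, at -2.00 ± 0.20, while its 2 probes differed in sign.

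The remaining 4 of the 12 overlapped once the later 6 h arrays were added. Fgl2, a fibrinogen-like protein with prothrombinase activity, read -0.99, -0.96 and 0.08 at 6 h and from -4.23 to -2.44 at 24 h (-2.77 ± 0.36, adjusted p = 0.00115, limma), and from -2.60 to -1.55 on the later day. Fosl1, the AP-1 component Fra-1, read -0.49, -0.54 and 0.19 at 6 h and from -2.99 to -1.22 at 24 h (-1.86 ± 0.30, adjusted p = 0.00367, limma). Only replicate 1 of concentration 1 for 24 h, at -1.22, reached the later 6 h arrays of Fosl1, which ran from -1.33 to -0.36. Plaur, the urokinase receptor, read -0.77, -1.69 and -1.79 at 6 h, from -3.73 to -2.59 at 24 h (-1.79 ± 0.27, adjusted p = 0.0026, limma), and from -3.57 to -2.33 on the later day, within and just above the 24 h range. For Fgf2, a fibroblast growth factor, the brightest probe differed by -2.08 ± 0.31 and its other probe had the other sign.

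The promoters of Tfpi2 and Plaur are printed because they were the only 2, of the 9 largest falls with an entry, to hold an AP-1 motif while Fosl1 fell on the same arrays. They come from RefSeq on the GRCr8 build, at chr4:32941277-32941396 on the minus strand and chr1:89181243-89181362 on the plus strand, each the 120 bases before the annotated start, written 5′ to 3′ with the motif TGANTCA in capitals.
Tfpi2: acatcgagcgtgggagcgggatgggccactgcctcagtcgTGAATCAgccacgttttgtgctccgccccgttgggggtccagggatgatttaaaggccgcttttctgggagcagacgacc
Plaur: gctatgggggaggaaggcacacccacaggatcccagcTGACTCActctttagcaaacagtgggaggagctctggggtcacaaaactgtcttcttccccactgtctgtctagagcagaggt
Searching 250 bases before the start on both strands, TGANTCA was present in 2 of these 9 promoters and in 6.36% of all 27457. The same search found GCGTG, the core of the site of the aryl hydrocarbon receptor, in 7 of the 9 and in 27.2% of all promoters. GCGTG was not particular to falls. It was present in 3 of 5 promoters of mitosis genes called higher and 4 of 7 of DNA replication genes called higher. Among the largest rises 1 of 11 held it. The cyclic AMP element TGACGTCA was in none of the 9 and 1.70% of all. Motifs were chosen after the results were seen, and a match is a description of these letters only.

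Early and growth-factor genes carried more falls than rises. Of 20 immediate early genes tested, 5 fell and 1 rose, and 15 of 20 differences were negative with a median of -0.33. Over all genes tested 3.17% fell, 6.9% rose and the median was 0.00. In the brightest part of all genes 4.65% fell, 2.79% rose and the median was -0.16. Dusp6, a phosphatase that inactivates ERK, read 2.95, 2.89 and 3.04 at 6 h and from 1.62 to 2.08 (median 1.81) at 24 h, and fell by 1.14 on the log2 scale (SE 0.14, adjusted p = 0.000836, limma). On the later day its 6 h arrays read from 1.82 to 2.76, with a median of 2.59, so that only the lowest of them reached the 24 h range. The others to fall beside Fosl1 were Egr2 (-0.92), Dusp5 (-0.87) and Myc (-0.73); Egr2 was saturated on 2 of the 3 arrays of 6 h. Without replicate 1 of concentration 1 for 6 h, or without replicate 1 of 1/25 for 6 h, 3 of the immediate early genes fell instead of 5.

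Fos went the other way. It read -3.16, -3.52 and -3.07 at 6 h and from -2.82 to -1.82 (median -2.23) at 24 h, without overlap, and rose by 1.00 ± 0.20 (adjusted p = 0.00858, limma). The later 6 h arrays were lower still, from -4.80 to -3.33, so that Fos was above all 9 arrays of 6 h. Fosb, at 0.77, and Dusp1 did not pass the threshold, and Dusp1 was above background on no 6 h array.

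Among 19 growth factors and their receptors 4 fell and 1 rose (median -0.15), where 3.17% of all genes tested fell and 6.9% rose. A further list of growth factor and ERK pathway genes was chosen after seeing the data. Of its 19 genes tested 4 fell and 2 rose, but 11 were positive and the median was 0.09. Ereg, an epidermal growth factor receptor ligand, read -1.77, -1.61 and -1.34 at 6 h and from -3.28 to -2.42 at 24 h (-1.32 ± 0.20, adjusted p = 0.00233, limma), with the later 6 h arrays overlapping at -3.16 to -1.70. Areg also fell, by 1.27 on the log2 scale, beside Fgf2. Hbegf, a related ligand of the hypertrophy list, read 1.41, 1.76 and 1.42 at 6 h and from 0.22 to 0.83 at 24 h, with means of 1.53 and 0.53 (SE of the difference 0.18, adjusted p = 0.005, limma). The exception was Angpt1, the ligand of the endothelial Tie2 receptor. It read -5.41, -4.27 and -5.89 at 6 h, where 1 of 3 arrays was above background, and from -3.56 to -2.60 (median -3.11) at 24 h, where all 9 were. It rose by 2.11 ± 0.29 (adjusted p = 0.0014, limma), and the later 6 h arrays, from -5.31 to -4.85, lay below all 24 h arrays as well.

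Il33 and Ccl2 were the 2 of 17 inflammatory genes to fall, where 3.17% of all genes tested fell and 6.9% rose. Il33, an alarmin cytokine of the interleukin 1 family, read 1.63, 0.72 and 2.35 at 6 h and from -0.57 to 0.24 at 24 h, and fell by 1.77 on the log2 scale (SE 0.28, adjusted p = 0.00339, limma). Ccl2, the monocyte chemoattractant, read 0.03, -0.17 and 1.25 at 6 h and from -1.91 to -0.68 at 24 h (-1.58 ± 0.30, adjusted p = 0.0074, limma). Both stayed below the later 6 h arrays, which ran from 0.96 to 2.16 for Il33 and from -0.44 to -0.12 for Ccl2. Ccl5 rose by 0.74 ± 0.17 (adjusted p = 0.018, limma), a call lost without replicate 1 of 1/25 for 6 h (adjusted p = 0.102). Cxcl1, Il1b and Nfkbia differed by -0.04, 0.23 and 0.00 and did not pass the threshold, and the list median was -0.04.

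Some genes of DNA replication and mitosis rose. Of 26 DNA replication genes 7 rose and none fell, 22 were positive and the median was 0.50. Of 27 mitosis genes 6 rose and none fell, 26 were positive and the median was 0.53. The same measure over all genes was 0.00, with 6.9% called higher. In the dimmest part of all genes 9.64% were called higher and the median was 0.29. These lists were chosen with earlier results of the same arrays known. Averaged over the mitosis list, the 3 arrays of 6 h read from -1.61 to -1.35 and all 9 of 24 h were higher, the lowest at -1.05; the untreated arrays read -1.66 and -1.45 and the later 6 h arrays from -2.12 to -1.50, all below the 24 h range. For the DNA replication list the 6 h arrays read from -2.21 to -2.06 and the lowest 24 h array -1.87, but the untreated arrays, at -1.93 and -1.45, and the later 6 h arrays, from -2.67 to -1.69, overlapped the 24 h range. In RNA from whole cultures, more dividing cells and more of these transcripts per cell cannot be told apart.

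Plk1, the polo-like kinase that drives mitotic entry, read -0.79, -1.14 and -1.47 at 6 h and from -0.82 to -0.02 (median -0.24) at 24 h, a difference of 0.84 ± 0.20 (adjusted p = 0.0205, limma). The times overlapped by 1 array, and without replicate 1 of 1/25 for 6 h the adjusted p was 0.116. Birc5, the chromosomal passenger survivin, read -1.01, -1.27 and -0.64 at 6 h and from -0.63 to 0.30 at 24 h (0.90 ± 0.22, adjusted p = 0.0234, limma); its later 6 h arrays, from -0.04 to 0.72, lay in the upper part of the 24 h range and above it. Kif11, a spindle motor, was above background on no 6 h array and 8 of 9 of 24 h, and was at least 1.63-fold higher at 24 h (adjusted p = 0.0227, limma). Ccnb2, Cenpe and Ube2c complete the 6, named after their values were seen to account for the count. Cenpe, at -4.05 to -2.51, and Ube2c, at -1.39 to -0.71, lay above all 6 h arrays of the later day too, the highest of which read -4.29 and -2.62, whereas the later arrays of Plk1, from -1.41 to -0.63, and of Ccnb2, from -3.77 to -3.11, reached the 24 h range. By contrast Mki67, Top2a and Prc1, at 0.11, 0.00 and -0.01, did not pass the threshold.

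Mcm6, a subunit of the replicative helicase, was above background on no 6 h array and 7 of 9 of 24 h. Its values were -6.68, -6.24 and -4.81 at 6 h and from -5.66 to -2.93 at 24 h, and it was at least 1.83-fold higher (adjusted p = 0.0208, limma). Replicate 2 of 1/25 for 24 h, at -5.66, stood below the other 8 and within the 6 h range. Rfc4, a clamp-loader subunit, rose by 1.07 ± 0.28 (adjusted p = 0.0287, limma), but its later 6 h arrays, from -4.16 to -3.20, reached above the 24 h range. Pcna and Rrm1, at -0.14 and -0.07, did not pass the threshold. The calls were fragile: without replicate 1 of concentration 1 for 6 h, or without replicate 1 of 1/25 for 6 h, 1 of the mitosis genes and 1 of the DNA replication genes rose. The list medians then lay between 0.39 and 0.49. Without replicate 2 of concentration 1 for 6 h the calls of Birc5, Mcm6 and Rfc4 were lost as well (adjusted p of 0.084, 0.062 and 0.098).

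**Figure D3:**
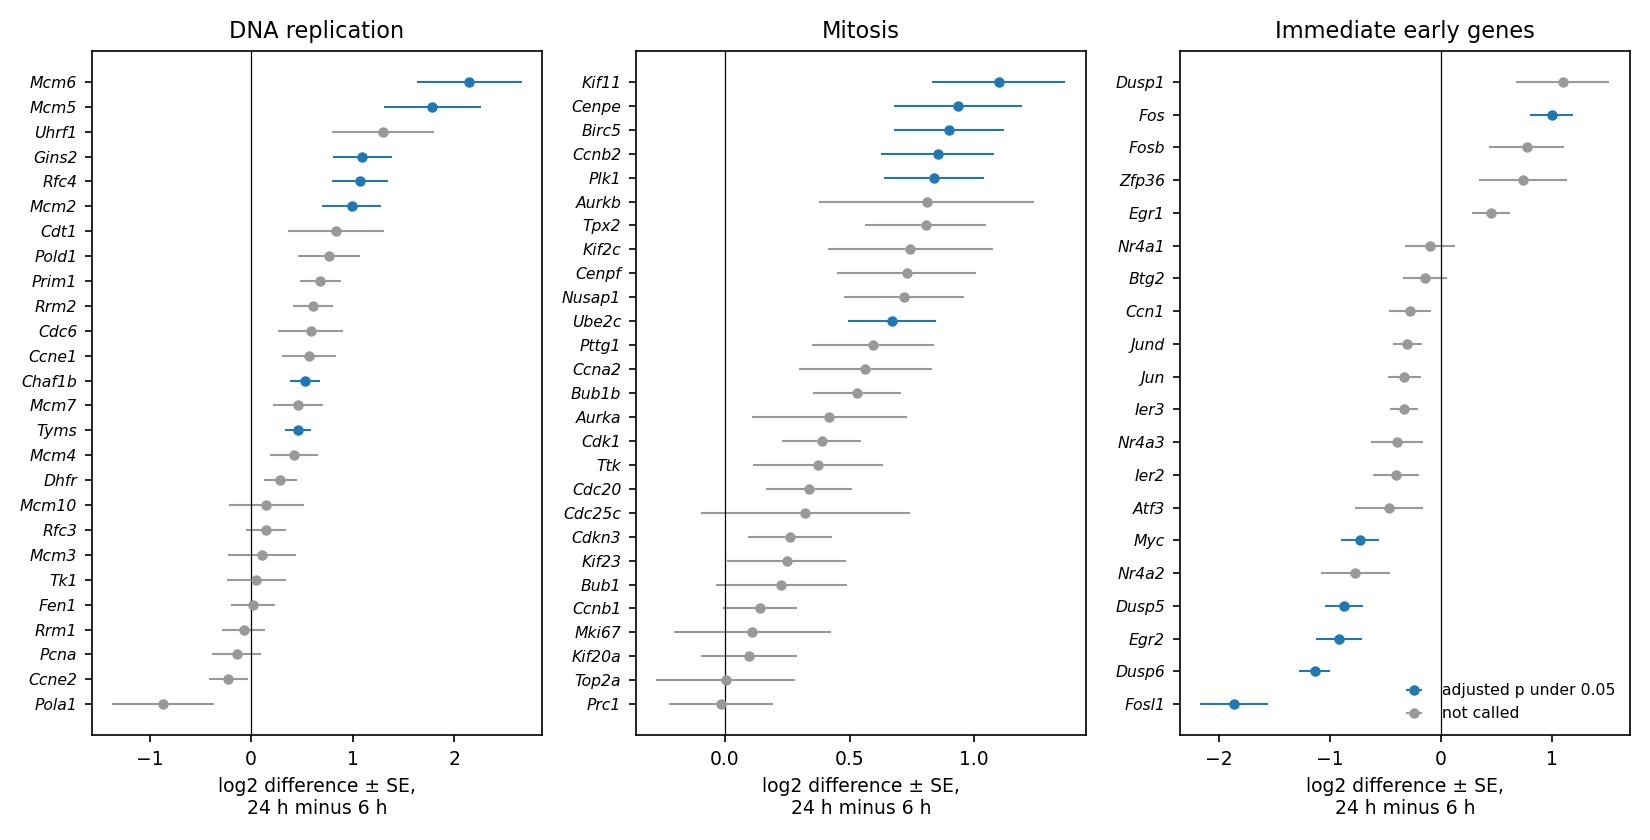
Log2 difference, 24 h minus 6 h, with its standard error, for every tested member of the DNA replication (26), mitosis (27) and immediate early (20) lists; blue points passed an adjusted p of 0.05 and grey points did not. Nearly all mitosis points lie right of 0, with Prc1 at -0.01 the lowest, while the immediate early genes run from Fosl1 at -1.86 to Dusp1, which was not above background at 6 h.

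Promoters of a called mitosis gene and a called replication gene are printed because both lists are known for shared promoter elements. From RefSeq on GRCr8, they are the 150 bases before the start of Ccnb2, chr8:79981659-79981808 on the minus strand, and of Mcm6, chr13:42404353-42404502 on the minus strand, 5′ to 3′. Capitals mark the CCAAT box (CCAAT, or ATTGG on the other strand), the cell-cycle homology region TTTGAA in Ccnb2 and the E2F motif TTTGGCGC in Mcm6.
Ccnb2: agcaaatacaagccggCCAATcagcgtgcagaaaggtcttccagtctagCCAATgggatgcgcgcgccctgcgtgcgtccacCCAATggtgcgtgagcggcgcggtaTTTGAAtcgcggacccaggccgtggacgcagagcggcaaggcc
Mcm6: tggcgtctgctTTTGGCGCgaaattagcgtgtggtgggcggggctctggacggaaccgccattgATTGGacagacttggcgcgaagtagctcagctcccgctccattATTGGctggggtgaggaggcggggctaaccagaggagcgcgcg
In the 250 bases before the start, on both strands, CCAAT was present in 5 of the 5 called mitosis genes with an entry, 3 of the 7 called replication genes and 34.3% of all promoters. TTTGAA was present in 2 of those 5 mitosis promoters and in 16.0% of all, and TTTGGCGC in 3 of the 7 replication promoters (Mcm5, Mcm6 and Tyms) and in 0.426% of all. None of the 9 promoters of the largest falls held any of these 3 motifs.

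The 12 largest called rises among genes above background on all 12 arrays had little in common by known function. They were picked by the same rule as the falls, which asked for no overlap on the earlier scan day. Pank3, a pantothenate kinase of coenzyme A synthesis, read -0.02, -0.20 and -0.80 at 6 h and from 1.12 to 1.92 (median 1.49) at 24 h, and rose by 1.85 ± 0.20 (adjusted p = 0.000392, limma). Tnfrsf26, a receptor of the tumour necrosis factor family, read -3.11, -3.85 and -4.19 at 6 h and from -1.86 to -1.40 at 24 h (2.03 ± 0.20, adjusted p = 0.000232, limma). For both genes the later 6 h arrays lay with the 24 h arrays, from 1.01 to 2.13 for Pank3 and from -2.05 to -1.12 for Tnfrsf26. Untreated arrays, at 1.67 and 1.49 for Pank3, lay there as well. For all 12 rises the medians of the later 6 h arrays and the untreated means were nearer 24 h than 6 h. This is partly built in, since the 12 were chosen for their distance from the 6 h arrays of the earlier day.

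Cimap1a, a protein of ciliary microtubules, led the 12 with a wider spread. It read -1.33, -1.72 and -1.99 at 6 h and from -0.59 to 1.80 (median 0.61) at 24 h, a difference of 2.27 ± 0.45 (adjusted p = 0.00893, limma), and lost its call without replicate 1 of 1/25 for 6 h (adjusted p = 0.051). Its highest array was replicate 2 of 1/5 for 24 h, which also had the largest share of probes above background of the 12 arrays, 80.4%. That array was the highest of the 24 h group for 4 more of the 12 too: Prl3d4, of the placental lactogen family, Ermap, an erythroid membrane protein, Kcna6, a voltage-gated potassium channel, and Galns, a lysosomal sulfatase. For Prap1 it was the lowest of the 9, at -0.04. Galns also lost its call without replicate 1 of 1/25 for 6 h (adjusted p = 0.074). The lowest 24 h array of Cimap1a, at -0.59, was replicate 2 of concentration 1, with 74.4% of probes above background. Replicate 3 of 1/5 for 24 h, with the smallest share of the 12 arrays, 63.6%, read 0.61. The part of array signal quality in these rises was not tested. Untreated replicate 1, with 82.7% of probes above background, read 1.00 for Cimap1a and replicate 2, with 66.4%, read -1.01; replicate 1 was the higher in 9 of the 11 rises with both values and the lower in 2, Tnfrsf26 and Prap1 (-0.75 against 0.40). The others of the 12 were Ric8a, a chaperone of G protein alpha subunits, the olfactory receptor Or8s8, Kiaa1671, Prap1 and Bpifb2, with differences from 1.73 to 1.90, and 1 of the 2 probes of Ric8a had the other sign.

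**Figure D4:**
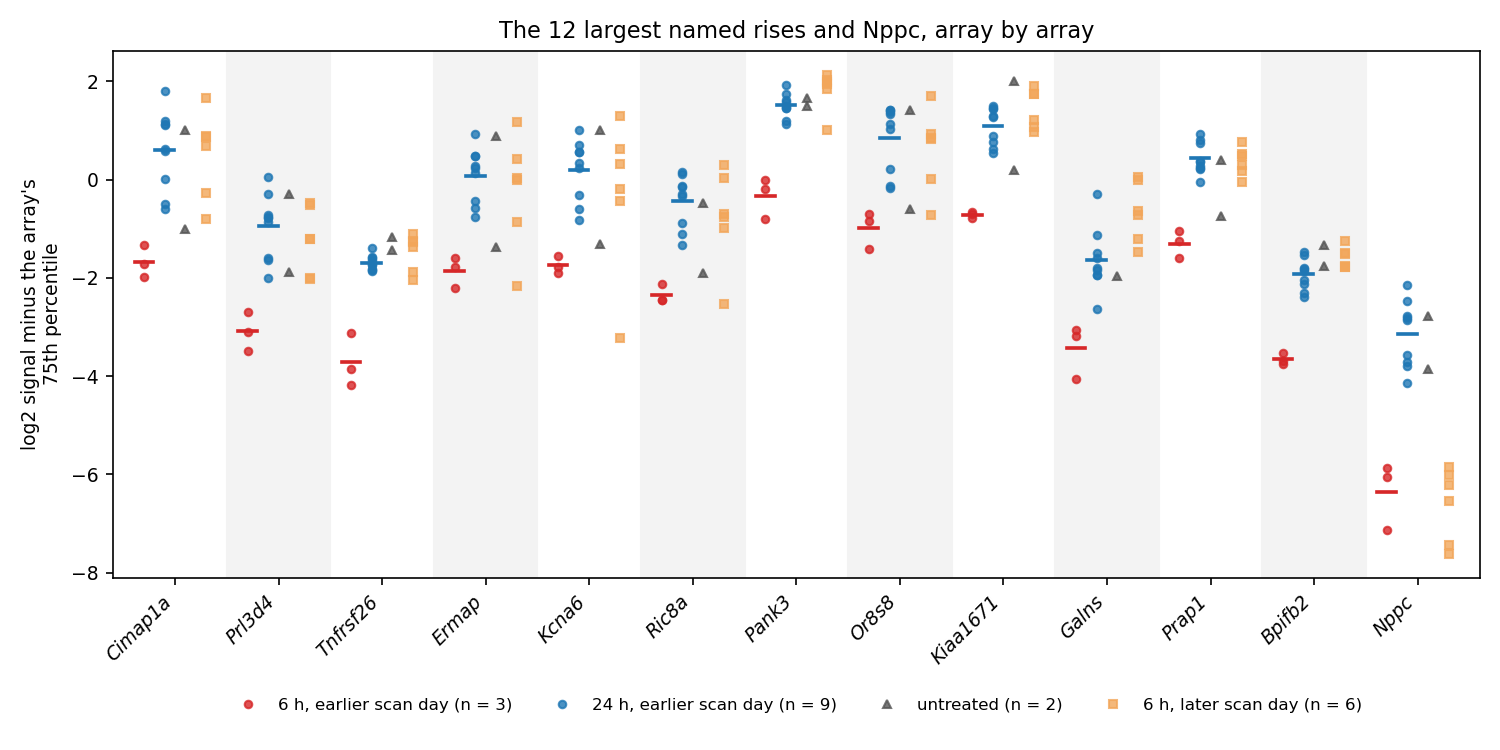
Scaled log2 signal on the y axis for the 12 largest rises and Nppc on the x axis, 1 point per array: red for 6 h of the earlier scan day (n = 3), blue for 24 h (n = 9), grey triangles for untreated (n = 2), orange squares for 6 h of the later scan day (n = 6); bars are means. Blue points lie above red points throughout, which the rule of choice required. The orange squares spread over the blue points in the 12 rises and lie with the red points, at or below -5.85, for Nppc.

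A handful of rises did hold against both sets of 6 h arrays: Nppc, Angpt1, Pdgfrb, Gbp2 and Fos were the 5 of 44 called rises named by the rules used here. Nppc, C-type natriuretic peptide, was above background on all 9 arrays of 24 h, from -4.14 to -2.14 (median -2.86), and on none of the 3 of 6 h. It was at least 2.82-fold higher at 24 h (adjusted p = 0.000946, limma); its measured 6 h values were -7.13, -5.87 and -6.05. The later 6 h arrays read from -7.61 to -5.85 and the untreated arrays -3.86 and -2.78, so Nppc was low on all 9 arrays of 6 h and on neither untreated array.

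Pdgfrb, the platelet-derived growth factor receptor of pericytes and fibroblasts, read 0.04, 0.28 and -0.34 at 6 h and from 0.71 to 1.63 (median 1.19) at 24 h. It rose by 1.22 ± 0.21 (adjusted p = 0.0045, limma), above the later 6 h arrays, the highest of which read -0.14, and the untreated arrays at 0.64 and 0.44. Gbp2, an interferon-induced guanylate-binding protein, read -2.91, -2.55 and -3.13 at 6 h and from -1.72 to -0.72 at 24 h (1.52 ± 0.22, adjusted p = 0.00194, limma), and from -2.77 to -1.91 on the later day. Of 20 interferon genes 3 rose and none fell, with 17 positive and a median of 0.50, against 6.9% called higher, 50.2% positive and a median of 0.00 over all genes; in the dimmest part of all genes 9.64% were called higher and the median was 0.29. Isg15, a ubiquitin-like modifier, rose by 0.93 ± 0.25 (adjusted p = 0.0321, limma) and lost its call without replicate 2 of concentration 1 for 6 h (adjusted p = 0.109), replicate 1 of 1/25 for 6 h (adjusted p = 0.128) or replicate 1 of 1/25 for 24 h (adjusted p = 0.051). Rig1, the RNA sensor once named Ddx58, rose by 0.95 ± 0.24 (adjusted p = 0.0283, limma), yet its later 6 h arrays, from -0.49 to 0.07, lay above all 24 h arrays. Its call was lost without replicate 1 of concentration 1 for 6 h (adjusted p = 0.155) or replicate 1 of 1/25 for 6 h (adjusted p = 0.055).

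Few heart muscle genes passed the threshold, which 10.1% of all genes tested did. None of the 10 cardiomyocyte markers passed the threshold in limma, and none was at an unadjusted p under 0.05; 8 were negative and their median was -0.27; Myom2, an M-band protein of the sarcomere, was the only riser among 21 sarcomere genes (0.90 ± 0.26, adjusted p = 0.0443, limma) and lost its call in 10 of the 12 fits that left out 1 array, 3 arrays of 6 h and 7 of 24 h (adjusted p from 0.053 to 0.231). Myh6, the alpha myosin heavy chain, read from 0.23 to 2.74 at 24 h and differed by -0.13 ± 0.44, and Myh7, the beta chain, differed by -0.10 ± 0.40. Nppa, atrial natriuretic peptide, differed by -0.51 ± 0.38. The 24 h spread of Nppa and Myh6 came largely from replicate 1 of concentration 1, the lowest of 9 at -0.94 and 0.23. Nppb was saturated on all 12 arrays and carries no measured difference. None of the 25 calcium handling genes, 12 cardiac transcription factors, 27 respiratory chain genes, 26 glycolysis genes, 25 proteasome genes, 23 lysosome genes or 17 endoplasmic reticulum chaperones was called in limma, with list medians from -0.27 to 0.18. Together with the actin cytoskeleton list these lists held 172 genes, of which 24 (14%) were at an unadjusted p under 0.05, against 26.7% of all genes tested. These lists were grouped because none of their members was called, while all genes include the called ones. The lower share is therefore partly built in.

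Of 45 markers of other cells tested, 6 rose and 2 fell, where 6.9% of all genes tested rose and 3.17% fell. In the dimmest part of all genes 9.64% rose and 1.54% fell. The same shares stand beside the counts of the single lists below. Averaged over 10 macrophage and leukocyte markers the 6 h arrays read from -1.80 to -1.66 and the lowest 24 h array -1.49. The later 6 h arrays, from -2.18 to -1.47, reached the 24 h range, and the untreated arrays read -1.58 and -1.14. Cd14 rose by 0.72 ± 0.17 (adjusted p = 0.0215, limma) and Cd163 by 1.39 ± 0.41 (adjusted p = 0.0463, limma). Both lost the call without replicate 1 of 1/25 for 6 h (adjusted p of 0.124 and 0.098) or replicate 1 of concentration 1 for 6 h (0.055 and 0.226). Cd163, above background on 1 of 3 arrays of 6 h, lost it without 6 of the 24 h arrays as well. Of 6 endothelial markers Kdr alone fell, by 0.61 on the log2 scale (SE 0.14, adjusted p = 0.0184, limma), a call lost without any of the 3 arrays of 6 h (adjusted p from 0.051 to 0.072). The list means of fibroblast markers read from -0.62 to -0.33 at 6 h, against -0.36 for the lowest 24 h array, and 1 of the 9 fibroblast markers rose: Lum, a matrix proteoglycan, was above background on no 6 h array and at least 1.81-fold higher (adjusted p = 0.00425, limma). Of 9 smooth muscle and pericyte markers 2 rose, Pdgfrb and Lmod1, an actin nucleator of smooth muscle (1.01 ± 0.28, adjusted p = 0.0381, limma); Lmod1 lost its call in 6 of the 12 fits that left out 1 array (adjusted p from 0.054 to 0.149). Sox10, a neural crest transcription factor, rose among 8 epicardial, neural crest and Schwann cell markers, at least 1.34-fold from below background (adjusted p = 0.00373, limma), and Ahsp fell among 3 erythroid markers. The part of cell composition in the other results was not tested.

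**Figure D5:**
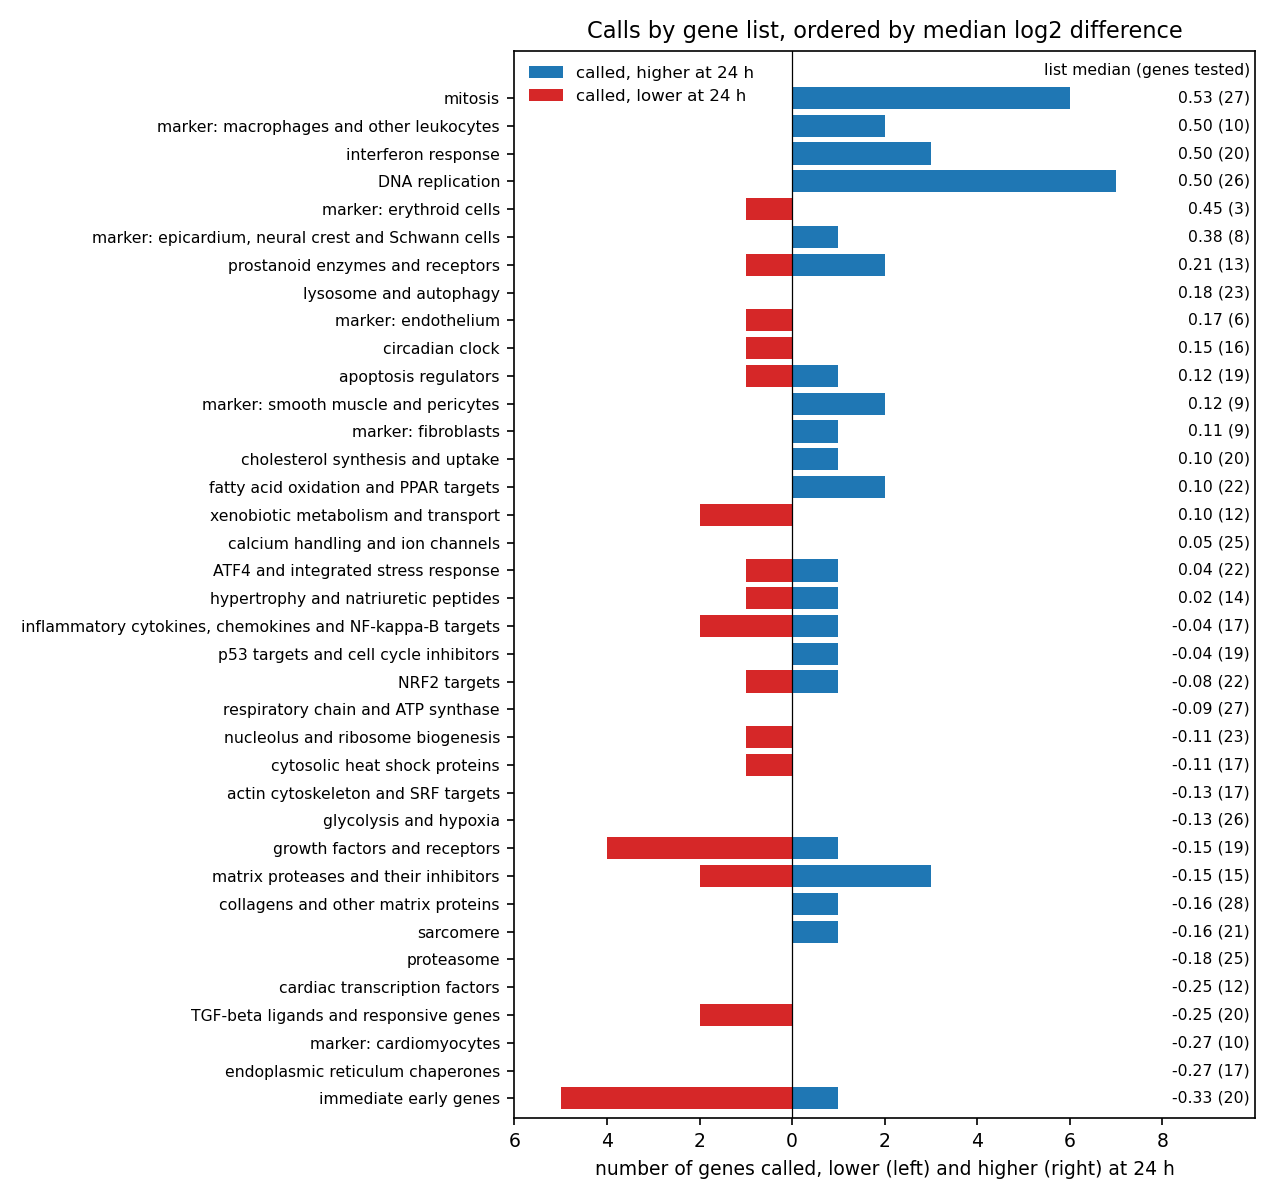
Number of genes called lower (red, left) and higher (blue, right) at 24 h on the x axis for each of 37 gene lists on the y axis, ordered by the median log2 difference, which is printed at the right with the number of genes tested. DNA replication (7 higher) and mitosis (6 higher) have the most rises, and immediate early genes (5 lower) and growth factors (4 lower) the most falls.

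Whether the time effect depended on concentration was tested between concentrations 1 and 1/25, the only 2 with both times on that day. Of 27643 genes tested in limma none passed, with 2146 at an unadjusted p under 0.05 and a smallest adjusted p of 0.146; 1/25 had a single 6 h array, whose spread was taken from the other groups. Fosl1 differed by -1.14 at concentration 1 and -2.35 at 1/25, and Il33 by -1.33 and -2.51, neither pair differing past the threshold over all genes (adjusted p of 0.565 and 0.65, limma). The direction was shared by both concentrations in all 2784 called genes that had both values, which is partly built in, since these arrays also entered the pooled comparison.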

How the data were processed

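The file headers name Agilent Feature Extraction 9.5.3.1 as the scanner software; the deposited values used are its processed intensity of each spot on a single-colour array, from which background was already subtracted; the genome build behind the probes is not given in the sources used here. The authors' deposited table of ratios was used as an alternative only; set against the arrays, it matched the processed signal over the array median and over the mean of the 2 untreated arrays (r from 0.983 to 0.996), although no label states this.

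Control and outlier spots were left out, spots of a probe averaged, and log2 signals scaled by each array's 75th percentile. Probes well above background on at least 3 of the 12 arrays were kept (31720 of 41012), and the brightest kept probe stood for a gene. Symbols came from the files and from RefSeq (GRCr8), and 20043 probes had one. limma 3.58.1 in R 4.3.3 fitted 1 mean per time, after a check on simulated data, with Benjamini-Hochberg adjustment over 27701 genes and calls at 0.05. For a probe below background on every array of a group, "at least N-fold" sets the bright group's mean against a floored mean of the dim arrays. On each dim array the floor is the lowest signal of any probe well above background. The probe's own signal is used where it is higher. The floor can lie below the signal of a probe not above background, so the fold is no guaranteed minimum. The number of arrays, 9 against 3, limits the precision.

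Genes were named by rule: the 12 largest called rises and falls above background and unsaturated on all 12 arrays, with a symbol other than LOC or RGD and no overlap between times, up to 3 called each way with only a bound, the up to 3 smallest adjusted p in each list with a called member, and Ptgs1, Ptgs2, Nppa, Nppb, Myh6 and Myh7. The members, lists and rules were chosen with earlier results of these data known. Alternatives covered scaling, background correction, filters, probe choice, blocks (slide, replicate, concentration, scan day), array weights, the untreated arrays and leaving out each array. The 6 h arrays of the later scan day and the 2 untreated arrays entered only such alternatives or are given as values. No label says that replicates came from separate cultures, so p-values cover only how far these arrays differ among themselves, and that can be technical variation. A few list members are not reported here.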

Additional observations from a re-analysis of the deposited data

Results flagged for a closer look

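The named genes, list means and array shares were checked for a single array far from the others among the 9 arrays of 24 h. Of 150 such groups 6 held one, where chance gives about 1 in 20. Replicate 1 of concentration 1 for 24 h stood apart in 3 of them: it was lowest for Myh6, at 0.23 against 1.63 to 2.74 on the other arrays, lowest for Nppa, at -0.94 against 0.13 to 1.22, and highest for Fdft1, an enzyme of cholesterol synthesis, at -1.66 against -3.40 to -2.71. Replicate 1 of concentration 1/5 for 24 h was highest for Cyp1a1, at -4.07 against -7.21 to -6.02, and it was the only 1 of the 9 above background there. Replicate 3 of 1/5 for 24 h was highest for Slc4a1, the erythroid anion exchanger, at -2.30 against -4.38 to -3.46. Replicate 2 of 1/25 for 24 h was lowest for Mcm6, at -5.66 against -4.25 to -2.93.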

How the results depend on the processing

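All 2790 called genes kept their direction with the 4 other scalings and with normexp, and 2789 in the authors' deposited table, but the counts moved. Calls higher at 24 h fell to 1172 with median scaling, 1187 in the authors' deposited table and 1035 of 1768 with normexp. They rose to 2401 (688 lower) with the percentile over probes above background on all 12 arrays and to 2459 (1135 lower) with array weights. Cyclic loess, chosen after seeing the data, gave 1352 higher and 866 lower. Slide as a fixed block left 8 (6 higher, 2 lower); concentration 1 alone, 3 arrays against 2, left 0 in limma with 3718 at an unadjusted p under 0.05; without the arrays of 1/5, 1743 passed (1206 and 537). All 18 treated arrays without a block gave 5215 calls, 2637 of them lower, and 471 of the 1912 rises and 369 of the 878 falls passed there again. Leaving out 1 array gave from 1071 to 2708 calls, 799 to 1939 higher and 272 to 886 lower, from 0 to 3 concentration-dependent genes (3 without concentration 1 6 h replicate 1), and a difference in share above background from 3.97 to 6.22 points. In those fits 22 of 44 named rises and 21 of 31 named falls passed every time. Replicate numbers did not pair the arrays: same-numbered arrays correlated at 0.01 on average (-0.12 to 0.16), others at -0.01, and the replicate block gave 1485 calls (1058 and 427).

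Signs turned for the following genes, and the cause was not tested. Myh7 became 0.049 with quantile normalisation and 0.055 with cyclic loess, Myh6 0.011 with cyclic loess and 0.17 with normexp, and without 1 array Myh6 ran from -0.53 to 0.21 and Myh7 from -0.51 to 0.22. With probes averaged, Chac1 was 0.47, Cdkn1a 0.062, Ptprc -0.27 and Col1a2 0.021. With slide fixed, Akr1b8 was 0.28, Slc4a1 -1.57, Smad6 0.38 and Rrs1 -0.027. Over 18 arrays without a block the values were Galns -0.043, Angptl4 -0.13, Rig1 -0.77, Chac1 0.25, Actc1 0.041, Tnni1 0.12, Dnaja1 0.13, Tp53inp1 -0.21, Cdkn1a 0.13, Eln -0.038, Nolc1 0.043, Ptprc -0.23, Col1a2 0.11, Nppb 0.12, Myh6 1.16 and Myh7 0.92. Actc1, Cdkn1a, Col1a2 and Nppb were saturated on all 12 arrays, so their signs carry no meaning.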

Other observations

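Single members of other lists were called. Of 22 integrated stress response genes, Slc7a5, a large neutral amino acid transporter, read 2.19, 1.95 and 1.21 at 6 h and from -0.52 to 1.49 at 24 h, where the 3 arrays of concentration 1 were the highest at 1.07, 1.49 and 0.83; it fell by 1.60 on the log2 scale (SE 0.43, adjusted p = 0.0352, limma), the arrays of 6 h and of concentration 1 for 24 h overlapped, and the adjusted p rose to between 0.052 and 0.140 without any 1 of the 3 arrays of 6 h or of 4 of the 24 h arrays. Vldlr, a lipoprotein receptor, was 1.30 ± 0.32 higher (adjusted p = 0.0225, limma; 0.086 and 0.134 without replicate 1 of concentration 1 or of 1/25 for 6 h), and its 24 h arrays overlapped those of 6 h on the earlier day. Osgin1, a target of the oxidative stress factor NRF2, read -4.66, -3.86 and -4.30 at 6 h and from -3.15 to -1.73 at 24 h (1.60 ± 0.28, adjusted p = 0.00534, limma), with the later 6 h arrays, from -3.65 to -1.53, over the 24 h range.

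Adamts5, a proteoglycan-cleaving protease, was above background on 1 of the 3 arrays of 6 h and rose by 1.64 ± 0.38 (adjusted p = 0.0192, limma), and it lost the call without replicate 1 of concentration 1 (adjusted p = 0.096) or of 1/25 (adjusted p = 0.087) for 6 h. Its later 6 h arrays, from -4.30 to -3.03, overlapped the 24 h range of -3.90 to -2.27. Cry1, a repressor of the circadian clock, read 0.49, 0.38 and 0.58 at 6 h, from 0.24 to 0.63 on the later day and from -0.46 to 0.38 at 24 h (-0.72 ± 0.18, adjusted p = 0.0283, limma; 0.095 and 0.114 without those same 6 h arrays). Ahsp, which stabilises alpha globin in erythroid cells, read 0.31, 0.60 and 0.59 at 6 h and from -1.62 to -0.35 at 24 h (-1.39 ± 0.25, adjusted p = 0.00578, limma), and from -0.95 to -0.08 at 6 h on the later day. Clec3a, a C-type lectin, was below background on all 9 arrays of 24 h and at least 2.65-fold lower there (adjusted p = 0.00253, limma), with later 6 h arrays from -7.57 to -5.01 against -6.69 to -5.10 at 24 h. Adgrb1, an adhesion receptor, was below background on all 3 arrays of 6 h and at least 3.34-fold higher at 24 h (adjusted p = 0.00426, limma), while the later 6 h arrays, from -6.05 to -3.17, overlapped its 24 h range of -3.73 to -1.81.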
